A study of Mus musculus with 9 samples.

Results

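The splicing factor genes described here are the mouse genes whose single symbol on the array begins with Sf3a, Sf3b, Snrp, Srsf, Hnrnp, Prpf or Sugp followed by the member's number or letter. The rule used symbols and no measured value, and it found 56 of the 12393 genes that had a probe set of their own. RNA came from wild-type mouse embryos, from the mid-foregut, which is the gut tube between the pharyngeal arches and the liver from which the lung buds grow. It was dissected at 16-20 somites (embryonic day 8.5 by the labels), 21-25 somites (day 9.0) and 26-30 somites (day 9.5), with 3 biological replicates per stage. Each replicate pooled 5 to 10 foreguts, from which the neural tube and heart had been removed, and was hybridised to 1 array after 2 rounds of RNA amplification. There was no treatment and no mutant, so stage was the only factor. Of the 56 genes, 55 had a mean signal above the filter level and entered the tests, which covered 8675 genes in all. Snrpn, which encodes the Sm protein SmN and is best known from the brain, was too dim, with signals of 9.5 to 55.2 over the 9 arrays.

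Introns are removed from pre-mRNA by the spliceosome, a particle built anew on each intron from small nuclear ribonucleoproteins (snRNPs), each a small nuclear RNA with its proteins. The U1 snRNP pairs with the 5′ splice site, the U2 snRNP with the branch site, and the U4/U6.U5 tri-snRNP then joins and is remodelled into the catalytic enzyme. SR proteins, which carry arginine-serine repeats, mostly promote exon inclusion from exonic enhancers, and hnRNP proteins often oppose them, so that the balance of both sets which exons a tissue keeps. These genes are active in every dividing cell, and a dissected tissue mixes epithelium, mesenchyme and blood, so that fewer cells of a type and less RNA per cell cannot be told apart in these values.

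Signals are MAS5 intensities on a linear scale, and each difference is on the scale of log2(signal + 26.2) with its standard error from limma. The arrays differed in their top signal. The highest signal was 27479.8 on 21-25 somites replicate 1, 32583.5 on 26-30 somites replicate 1 and 28379.4 on 26-30 somites replicate 2, against 43791.6 to 61749.1 on the other 6 arrays. These 3 are named the arrays with a low top signal here. The summed signal of 12 hepatic markers, 11 of them on the array, was 39815 on 16-20 somites replicate 2 and 1805 to 9844 on the other arrays, and that of 12 cardiac muscle markers was 19230 there and 2425 to 7574 elsewhere. Of the foregut endoderm and mesenchyme markers, 8 of 10 genes of each list passed the filter, beside 8675 of all 12393 genes. Shh and Nkx2-1 of the endoderm list and Foxf1 and Tbx4 of the mesenchyme list did not pass it. The endoderm sums ran from 8482 to 16760, with the highest also on 16-20 somites replicate 2. Most of the sum on that array came from the keratin genes Krt8, at 7627, and Krt18, at 5459. Foxa1 and Sox2, of the same list, had their lowest signals of all arrays there, at 1383 and 182. The mesenchyme sums were 2999 to 3532 at 16-20 somites, 2837 to 4088 at 21-25 somites and 4601 to 5262 at 26-30 somites. All arrays of 26-30 somites thus lay above all earlier arrays in the mesenchyme sum. That sum leaned on Isl1, the brightest gene of the list, with means of 973 at 16-20 somites and 2087 at 26-30 somites. Of the list's tested genes, Wnt2 and Tcf21 had slightly lower values at 26-30 than at 16-20 somites, by -0.14 and -0.092. The other tested genes of the list had higher values. The part of tissue make-up in the stage differences was not tested.

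No splicing factor gene passed limma's adjusted p of 0.05 in any comparison, and neither did any other gene (0.00% of 8675 for each stage comparison and for the difference between the steps). At an unadjusted p under 0.05, 7 of the 55 genes differed between 26-30 and 16-20 somites, 12.7% against 11.1% of all tested genes. Of these 3 were higher, Hnrnpul1, Srsf10 and Srsf4, and 4 were lower, Snrpd3, Sf3b5, Prpf6 and Snrpe, against 6.33% of all genes higher and 4.78% lower. Between 21-25 and 16-20 somites the count was 8 of 55, or 14.5%, against 11.0% of all genes. Higher were 5, Prpf39, Sugp2, Hnrnpul1, Prpf40b and Hnrnpf, beside 5.75% of all genes, and lower were 3, Snrpb2, Sf3b5 and Snrpb, beside 5.26%. Between 26-30 and 21-25 somites it was 4 of 55, or 7.27%, against 3.99% of all genes, with Snrpb and Snrpb2 higher beside 2.04% of all genes and Prpf39 and Sugp2 lower beside 1.95%. The share of splicing factor genes was thus near that of all genes over the whole interval, and the counts of the steps were small. The median log2 difference over the 55 genes was 0.11 for 26-30 against 16-20 somites, 0.020 for 21-25 against 16-20 and -0.011 for 26-30 against 21-25, while that over all tested genes lay at 0.011, 0.0027 and 0.0068.

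The families went different ways. At 26-30 against 16-20 somites, 8 of 9 SR protein genes had higher values and 7 of 7 tested snRNP protein genes (Snrp) had lower values, with medians of 0.42 and -0.32 on the log2 scale. Of all tested genes 51.0% had higher and 49.0% lower values. Of the hnRNP genes 12 of 18 were higher, with a median of 0.16, and of the PRPF genes 6 of 10, with a median of 0.093. Among the SF3a and SF3b genes 3 of 9 were higher, and the median was -0.15. These counts describe families of genes that share arrays, and no test was made of a family.

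**Figure D1:**
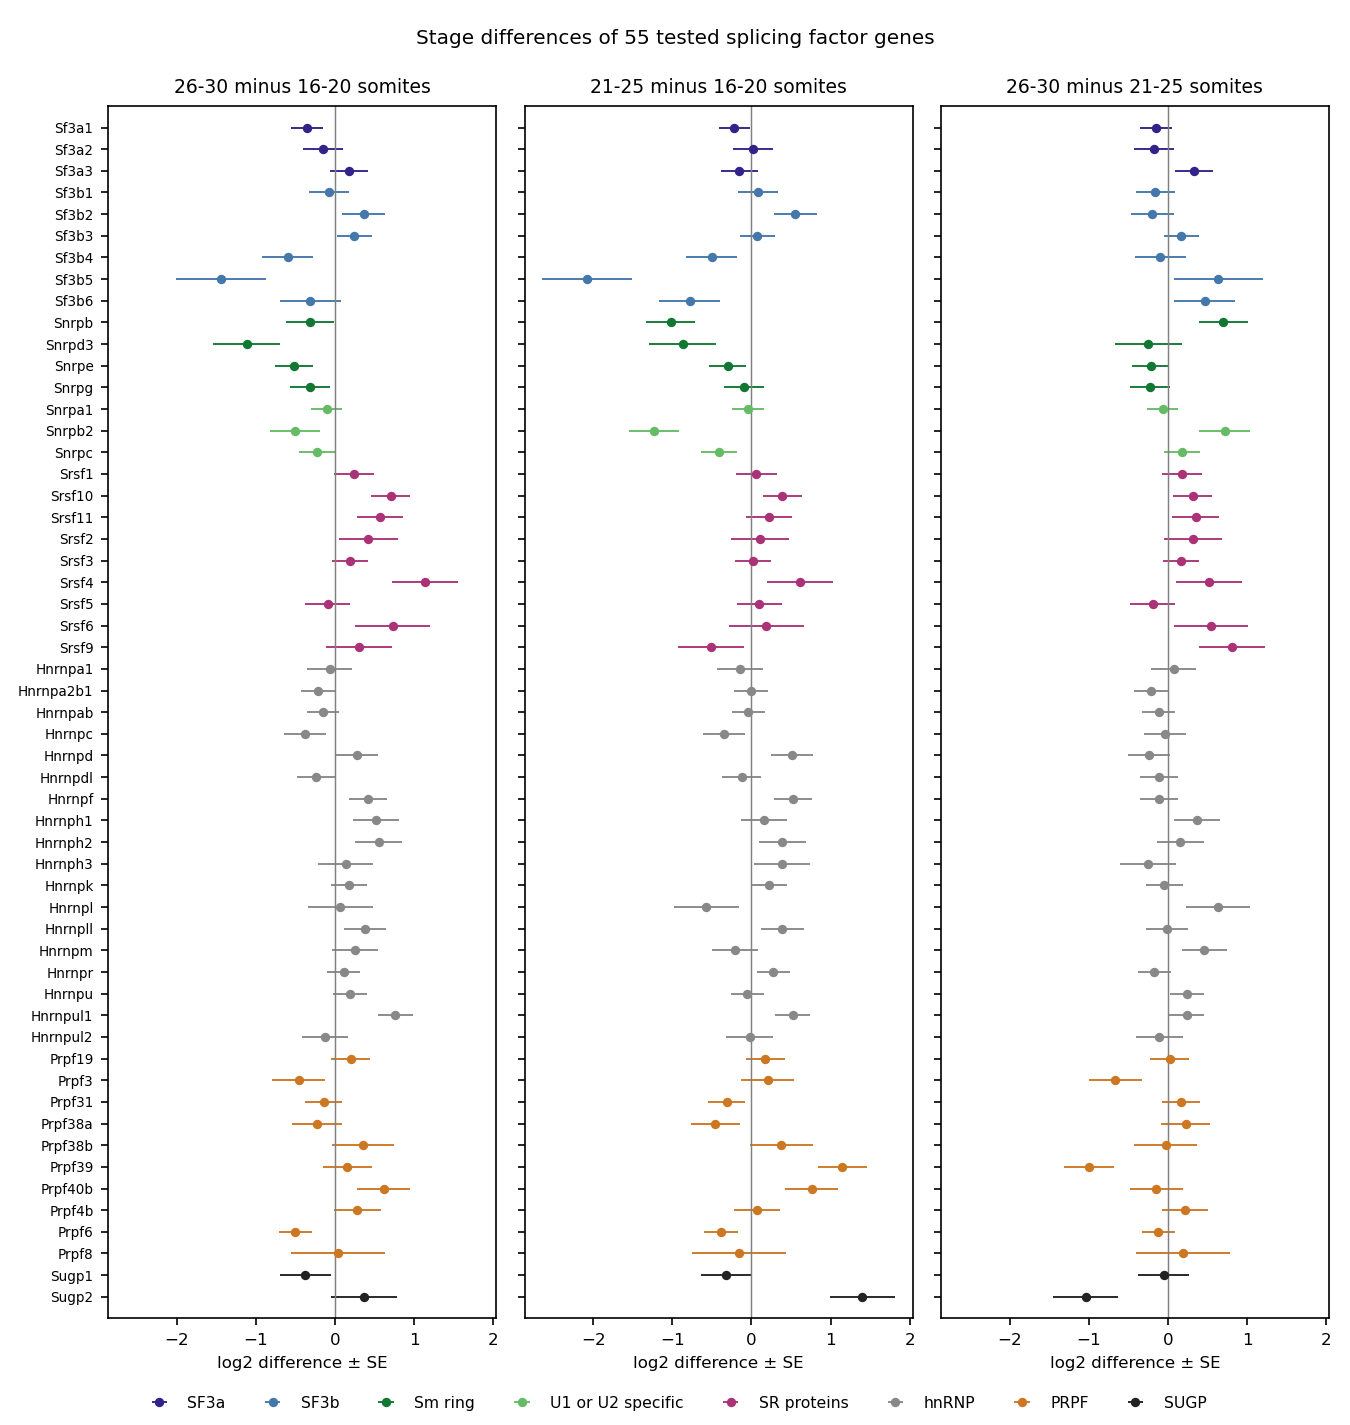
Log2 difference with its standard error (horizontal axis) for the 55 tested splicing factor genes (rows), coloured by family, in the 3 stage comparisons. In the comparison of 26-30 with 16-20 somites the Snrp genes all lie left of 0, with a median of -0.32, and 8 of 9 SR protein genes lie right of it, with a median of 0.42.

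The Sm proteins form the ring that encircles the small nuclear RNA of most snRNPs. Snrpd3, which encodes the ring subunit SmD3, had signals of 3915, 3231 and 3598 at 16-20 somites, 1393, 1737 and 3042 at 21-25 somites and 1443, 879 and 3423 at 26-30 somites. All 3 arrays of the youngest stage were high, replicate 3 of each later stage was nearly as high, and the other later arrays were low, so that 26-30 and 16-20 somites overlapped. The difference between 26-30 and 16-20 somites was -1.11 ± 0.42 (SE, n = 3 per stage, limma adjusted p = 0.380). Without the 3 arrays with a low top signal it was -0.060, with 1 array left at 26-30 somites. The summed signal of 8 erythroid markers, 6 of them on the array, was also lowest on arrays of this kind, at 18020 on 21-25 somites replicate 1 and 20725 on 26-30 somites replicate 2. The erythroid sum was 36723 to 40447 at 16-20 somites and 57724 on 26-30 somites replicate 3. Most of each sum came from the bright globin genes Hbb-y and Hbb-bh1. Gata1, Klf1 and Alas2, of the same list, were lowest on 21-25 somites replicate 1, at 75.7, 96.8 and 111.5. On 26-30 somites replicate 2 they were not among their lowest, at 161.3, 178.3 and 241.7. The part of blood cells in the Snrpd3 result was not tested.

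The ring subunit gene Snrpe had 11677, 10382 and 14468 at 16-20 somites, 7939.7, 9492 and 12396 at 21-25 somites and 8484, 6996 and 10030.4 at 26-30 somites. No array of 26-30 somites reached the lowest array of 16-20 somites, and the difference was -0.52 ± 0.24 (limma adjusted p = 0.443). Snrpg, another ring subunit, had -0.32 ± 0.25 with overlapping arrays, and 0.039 without the 3 arrays with a low top signal.

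Snrpb encodes the ring subunits SmB and SmB′, and its lowest values lay in the middle stage. It had 1107, 1450.2 and 2032 at 16-20 somites, 702, 539 and 982 at 21-25 somites and 1558, 1258 and 848 at 26-30 somites. Every array of 21-25 somites was below every array of 16-20 somites, while 26-30 somites overlapped both. The first step, 21-25 against 16-20 somites, was -1.02 ± 0.31 (limma adjusted p = 0.328) and the second, 26-30 against 21-25 somites, 0.70 ± 0.31 (limma adjusted p = 0.998). Snrpb and Snrpn encode near-identical proteins, and whether the Snrpb probe set also takes up Snrpn RNA was not tested.

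Snrpb2 encodes a U2 snRNP protein that binds a stem-loop of U2 small nuclear RNA together with the product of Snrpa1. Its signals were 1423, 1536 and 2146 at 16-20 somites, 784, 400.4 and 1084 at 21-25 somites and 1250.2, 1135 and 1124 at 26-30 somites. The 3 stages did not overlap: the middle stage was lowest, and 26-30 somites lay between. The first step was -1.23 ± 0.32 (limma adjusted p = 0.314), the second 0.72 ± 0.32 (adjusted p = 0.998), and the second minus the first 1.94 ± 0.55 (adjusted p = 0.762). A dimmer Snrpb2 probe set, below the filter level, read 92.8, 71.7 and 73.0 at 16-20 somites, 48.7, 54.1 and 33.9 at 21-25 somites and 79.4, 59.3 and 73.8 at 26-30 somites, again with the middle stage lowest. Its partner gene Snrpa1 averaged 6228 ± 979.9 at 16-20 somites, 6014 ± 556 at 21-25 somites and 5739 ± 296 at 26-30 somites (SD, n = 3 each), with means closer than the spread of the first stage.

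Snrpc encodes a protein that helps the U1 snRNP to hold the 5′ splice site. It had 1391, 1441 and 1312 at 16-20 somites, 755, 1264 and 1159 at 21-25 somites and 1084, 1185 and 1254 at 26-30 somites. Both later stages lay wholly below the first, by -0.41 ± 0.23 at 21-25 somites and -0.23 ± 0.23 at 26-30 somites. Over the 3 stages, 6 of the 7 tested Snrp genes had their highest array at 16-20 somites. Of all tested genes 5.91%, 18.4% and 11.8% had it on replicates 1, 2 and 3 of 16-20 somites. In the fits without 1 array the median over the Snrp genes for 26-30 against 16-20 somites stayed below 0, and without the 3 arrays with a low top signal it was -0.14, with 6 of 7 genes lower.

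**Figure D2:**
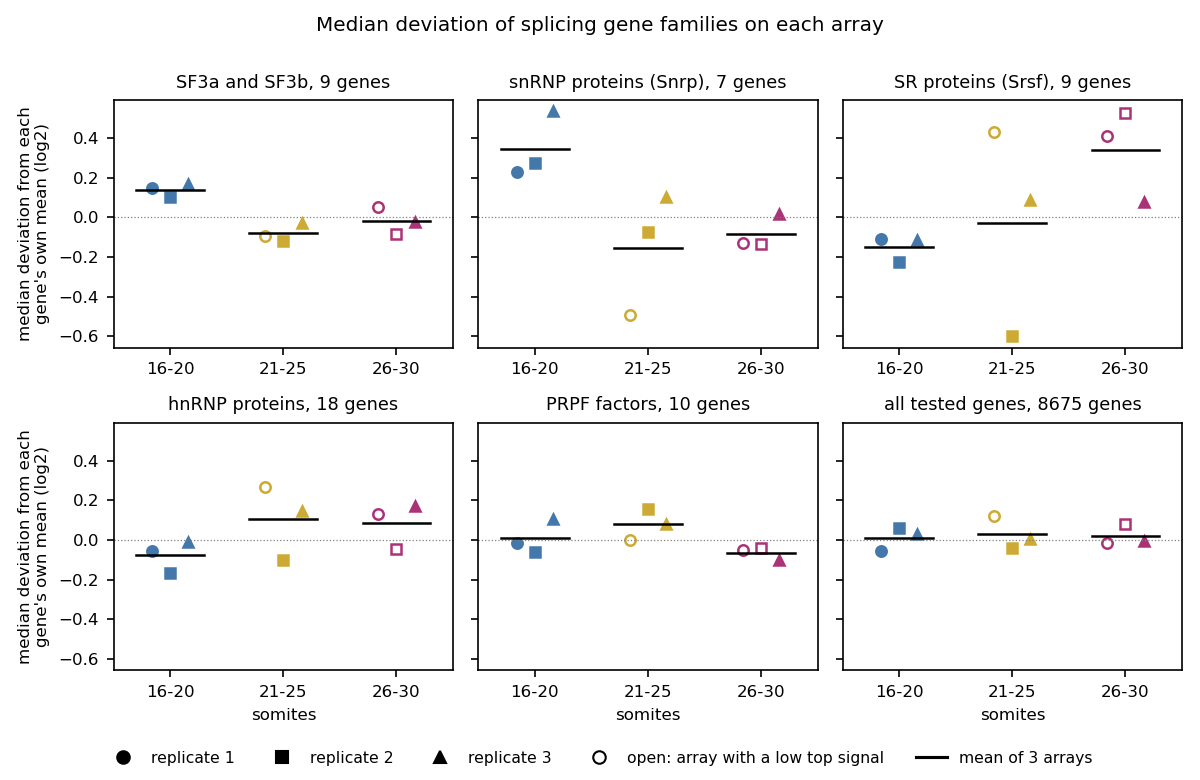
Median over each family of the deviation of a gene from its own mean over the 9 arrays (vertical axis, log2) by stage in somites, with 1 point per array and a bar for the mean of the 3 arrays. The 3 arrays of 16-20 somites hold the highest Snrp medians, at 0.23 to 0.54, and the SR protein medians are highest on the open symbols, the arrays with a low top signal, at 0.41 to 0.53.

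The SF3a and SF3b complexes belong to the U2 snRNP, where SF3b holds the branch site adenosine. Sf3b5, its smallest subunit, had 269.5, 243 and 309 at 16-20 somites, 16.4, 8.2 and 215 at 21-25 somites and 80.4, 69.8 and 104 at 26-30 somites. The first stage was high on all arrays and did not overlap either later stage, and the middle stage was split between 2 arrays close to the bottom of the scale and replicate 3. Differences were -2.08 ± 0.57 for the first step (limma adjusted p = 0.314) and -1.44 ± 0.57 over the whole interval (adjusted p = 0.388). These values come from the brighter of its 2 probe sets. Over the alternative fits the first step ran from -2.96 to -0.89 and the whole interval from -1.63 to -0.81. Without 21-25 somites replicate 3 the first step was -2.96 with a limma adjusted p of 0.00604, and 3 of the 8675 genes (0.0346%) then passed the threshold. The array left out had the heaviest precision weight of its stage, 2.89. With all arrays kept and weighted by precision, limma's adjusted p for the first step was 0.433. The signals of 16.4 and 8.2 are under the value of 26.2 added before taking logs, so the size of that difference depends on it.

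Sf3b6, which encodes the subunit that touches the branch site adenosine, was measured by 3 probe sets above the filter level, and all 3 had their lowest mean at 21-25 somites. The brightest read 3643, 2889 and 2637 at 16-20 somites, 1179, 1337 and 3412 at 21-25 somites and 1938, 1964 and 3766 at 26-30 somites. Its first step was -0.78 ± 0.39 (limma adjusted p = 0.471), with 21-25 somites replicate 3 as high as the first stage. The other probe sets gave -0.43 ± 0.23 and -0.79 ± 0.24 for the same step. Sf3b4 had -0.60 ± 0.32 over the whole interval by its brightest probe set and 0.39 ± 0.23 by the other, so its direction depended on the probe set. Of the SF3a genes, Sf3a1 was lower at 26-30 than at 16-20 somites on all arrays, by -0.36 ± 0.20 (limma adjusted p = 0.507), while Sf3a2 and Sf3a3 overlapped between these stages. Sf3b2 had its highest mean in the middle stage, with 5731, 3904 and 3855 at 16-20 somites, 6513, 9257 and 4554 at 21-25 somites and 5962, 5759 and 5331 at 26-30 somites. The stages overlapped, and the first step was 0.55 ± 0.27 (limma adjusted p = 0.466) by this probe set but -0.15 ± 0.19, -0.077 ± 0.30 and -0.26 ± 0.31 by its 3 other probe sets.

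Promoters were set side by side to show what the genes share that the symbol rule did not use. RefSeq promoters of the 250 bases before the start (GRCm38.p6) matched 51 of the 56 genes, and 5 short motifs were searched on both strands. Where a gene had several listed starts, only the first was taken. CCGGAAG, the core bound by ETS factors, was found in 16 of the 51 (31.4%), against 9.13% of 17492 promoters of protein-coding genes and 7.05% of all 27025. Neither of these shares was limited to genes detected here, while nearly all the splicing factor genes passed the filter. The motif was found in 6 of 7 promoters of SF3a and SF3b genes, 3 of 7 of Snrp genes, 3 of 9 of SR protein genes and 2 of 16 of hnRNP genes. CCAAT was in 47.1%, against 36.3% of protein-coding promoters, and in 10 of 16 hnRNP promoters. GCATGCG, the core of NRF1 sites, was in 3.92% against 3.79%, AAGATGG, the core of YY1 sites, in 3.92% against 4.10%, and TATAAA in 7.84% against 12.4%. CCGGAAG was also in the promoters of Srsf4 (at -210), Srsf11 (-104) and Hnrnpf (-50), whose values were higher in a later stage. It was not in those of Snrpd3 and Snrpe, whose values were lower. Srsf4, Srsf11 and Hnrnpf had 3, 2 and 4 listed starts, and only the first was searched. Whether the motif goes with direction over the 51 promoters was not tested. A match is a description of letters in this window and was not tested as a binding site. In the promoters below the capitals mark these motifs, and positions count the first base before the start as -1. Of genes with lower values in a later stage, Snrpb2 (chr2:143062819-143063068, plus strand) and Snrpc (chr17:27839837-27840086, plus strand) are shown with the motif and Snrpd3 (chr10:75517792-75518041, plus strand) without it. Snrpb2 holds 2 copies of CCGGAAG on the other strand at -28 and -9, Snrpc 1 copy at -39, and Snrpd3 holds CCAAT at -212 and its reverse complement at -158. Of genes with higher values, Srsf4 (chr4:131873387-131873636, plus strand) is shown with CCGGAAG, on the other strand, and Srsf10 (chr4:135855821-135856070, plus strand) and Hnrnpul1 (chr7:25754760-25755009, minus strand) without it. Hnrnpul1 holds CCAAT at -241 and -66 and its reverse complement at -110, beside an AAGATGG match at -8.
Snrpb2: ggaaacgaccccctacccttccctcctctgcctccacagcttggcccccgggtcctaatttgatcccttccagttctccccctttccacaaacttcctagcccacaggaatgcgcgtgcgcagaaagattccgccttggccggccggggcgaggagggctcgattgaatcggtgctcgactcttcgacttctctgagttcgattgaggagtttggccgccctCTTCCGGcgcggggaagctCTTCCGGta
Snrpc: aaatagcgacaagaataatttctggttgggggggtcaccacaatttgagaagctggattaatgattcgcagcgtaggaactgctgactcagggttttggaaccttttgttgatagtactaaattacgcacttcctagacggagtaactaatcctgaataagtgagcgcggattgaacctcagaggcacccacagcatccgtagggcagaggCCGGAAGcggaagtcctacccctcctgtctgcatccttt
Snrpd3: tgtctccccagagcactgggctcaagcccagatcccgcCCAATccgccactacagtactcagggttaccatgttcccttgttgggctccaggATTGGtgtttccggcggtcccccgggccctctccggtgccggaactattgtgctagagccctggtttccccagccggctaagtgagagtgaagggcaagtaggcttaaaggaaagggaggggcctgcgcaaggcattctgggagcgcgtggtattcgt
Srsf4: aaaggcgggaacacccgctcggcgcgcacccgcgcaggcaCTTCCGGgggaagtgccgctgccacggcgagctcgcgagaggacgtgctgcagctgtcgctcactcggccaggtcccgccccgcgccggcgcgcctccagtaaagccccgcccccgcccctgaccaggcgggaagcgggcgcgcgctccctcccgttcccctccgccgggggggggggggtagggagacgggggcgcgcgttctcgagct
Srsf10: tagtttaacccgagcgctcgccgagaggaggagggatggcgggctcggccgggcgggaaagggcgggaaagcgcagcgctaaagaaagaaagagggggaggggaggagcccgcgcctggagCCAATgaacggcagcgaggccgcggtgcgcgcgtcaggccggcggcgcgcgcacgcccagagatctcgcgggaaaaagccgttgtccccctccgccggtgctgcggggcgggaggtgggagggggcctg
Hnrnpul1: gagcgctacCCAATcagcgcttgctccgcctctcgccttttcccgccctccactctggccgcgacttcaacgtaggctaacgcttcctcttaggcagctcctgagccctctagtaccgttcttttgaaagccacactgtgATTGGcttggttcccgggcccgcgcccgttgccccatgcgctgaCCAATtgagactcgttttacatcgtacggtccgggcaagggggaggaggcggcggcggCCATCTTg

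Among the SR proteins the values of later stages were mostly higher. Srsf4, a large SR protein, had 587, 534 and 1064 at 16-20 somites, 1883, 584 and 1122 at 21-25 somites and 1596, 2303 and 1026 at 26-30 somites. The 3 arrays with a low top signal held its 3 highest values, and replicate 3 of 26-30 somites lay below replicate 3 of 16-20 somites. The difference between these stages was 1.14 ± 0.42 (limma adjusted p = 0.376), and 0.55 without those 3 arrays.

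Srsf10, which encodes an SR protein whose action on splicing turns on its phosphorylation, had 760.4, 1039.5 and 781 at 16-20 somites, 1420.0, 1170.1 and 856 at 21-25 somites and 1479, 1606 and 1168 at 26-30 somites. All arrays of 26-30 somites were above all of 16-20 somites, and the difference was 0.71 ± 0.25 (limma adjusted p = 0.372). Of its other probe sets above the filter level, 2 had the same sign, at 0.57 ± 0.28 and 0.29 ± 0.26, and the dimmest the opposite, at -0.32 ± 0.29. Srsf11 was also apart between these stages, with 3806, 4749.6 and 3405 at 26-30 somites against 2956, 2705 and 2339 at 16-20 somites, by 0.57 ± 0.29 (limma adjusted p = 0.473). Srsf1, an SR protein that helps to select 5′ splice sites, averaged 7085 ± 656 at 16-20 somites, 7702 ± 2628 at 21-25 somites and 8354 ± 572 at 26-30 somites (SD, n = 3 each), and its stages overlapped.

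Srsf6 and Srsf9 show how far the middle stage was spread. Srsf6 had 2404, 2638 and 3982 at 16-20 somites, 5855, 1299 and 4879 at 21-25 somites and 5129.8, 6479 and 3514 at 26-30 somites, so that its lowest and its second highest value were both at 21-25 somites. Srsf9 had 2451, 3470.2 and 5955, then 3362, 1356 and 3767, then 4834, 6165 and 3182, over the same stages, again with 21-25 somites replicate 2 lowest. That array was the lowest of the 9 for 5 of 9 SR protein genes and for 17 of the 55 tested genes, 30.9% against 21.1% of all tested genes. Its Actb 3′ to 5′ signal ratio was 45.3, against 20.9 to 36.8 on the other arrays, while its Gapdh ratio of 36.4 lay within the 16.0 to 40.9 of the others, and the part of RNA quality in these values was not tested.

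The SR protein medians were highest on 3 arrays of both later stages. They were 0.43 on 21-25 somites replicate 1, 0.41 on 26-30 somites replicate 1 and 0.53 on 26-30 somites replicate 2, the arrays with a low top signal, and -0.60 to 0.09 on the other 6. Without these 3 arrays, 7 of 9 genes were higher at 26-30 than at 16-20 somites with a median of 0.35, which rests on 1 array of 26-30 somites. For 21-25 against 16-20 somites the median was then -0.12, with 3 of 9 genes higher, in place of 0.10 with 8 of 9. Leaving out 21-25 somites replicate 2 gave 0.36.

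**Figure D3:**
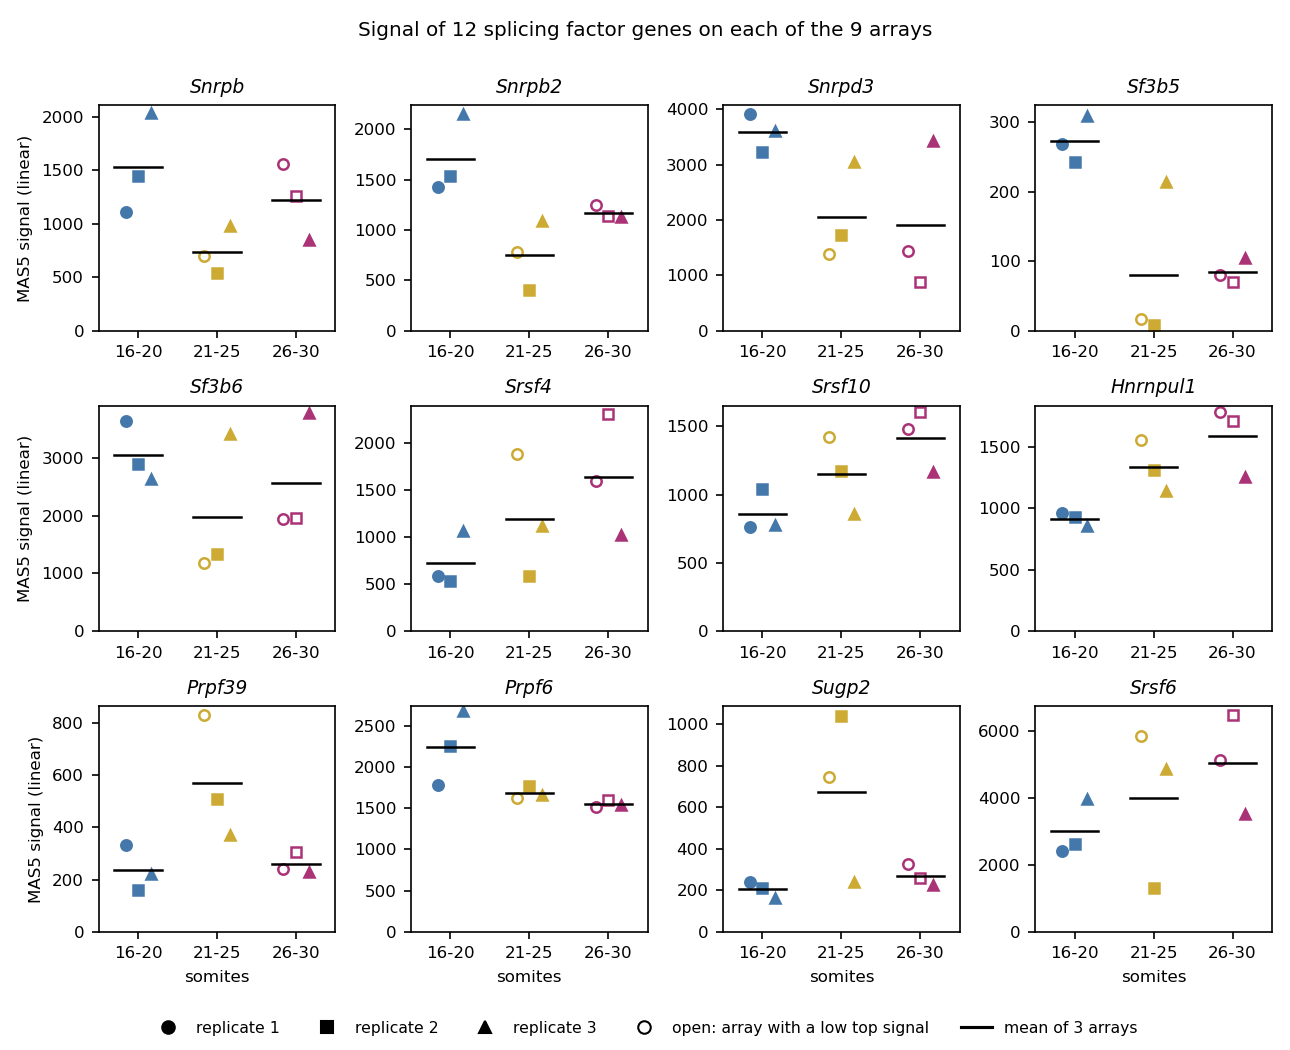
MAS5 signal (vertical axis, linear from 0) of 12 splicing factor genes by stage in somites, with 1 point per array and a bar for the mean of the 3 arrays. Snrpb2 is lowest at 21-25 somites, where it had 784, 400.4 and 1084, Prpf39 and Sugp2 are highest there, and Hnrnpul1 is lowest on the 3 arrays of 16-20 somites.

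The hnRNP proteins coat nascent transcripts and act in splicing, export and stability. Hnrnpul1, a nuclear protein related to the scaffold factor hnRNP U, had 962, 931 and 856 at 16-20 somites, 1553, 1314 and 1138 at 21-25 somites and 1786, 1715 and 1256 at 26-30 somites. Neither later stage overlapped the first, and the later 2 overlapped each other. Its difference was 0.76 ± 0.22 at 26-30 against 16-20 somites (limma adjusted p = 0.344) and 0.52 ± 0.22 at 21-25 against 16-20 somites (adjusted p = 0.430), from 1 probe set. Without the 3 arrays with a low top signal, the value over the whole interval was 0.45.

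Hnrnpf, which binds G-rich sequence, had 4449, 4927 and 4712 at 16-20 somites, 7316, 6876 and 6199 at 21-25 somites and 7241, 4352 and 7864 at 26-30 somites. All arrays of 21-25 somites lay above those of 16-20 somites, by 0.53 ± 0.24 (limma adjusted p = 0.448), and its 3 other probe sets gave 0.35 ± 0.26, 0.0035 ± 0.43 and -0.17 ± 0.48. Hnrnph2 had 1331, 814 and 705 at 16-20 somites, 1719.5, 1001 and 1024 at 21-25 somites and 1459, 1540.5 and 1102 at 26-30 somites, a whole-interval difference of 0.55 ± 0.29 with overlapping stages. Hnrnpl was dim, and its signal of 15.7 on 21-25 somites replicate 2 stood beside 78.0 to 139 on the other arrays. Hnrnpm had its lowest array, at 1695, on the same replicate, beside 2916 to 4279.8 on the others, and its second step was 0.46 ± 0.29. Hnrnpdl averaged 19993 ± 1297 at 16-20 somites, 18502 ± 3307 at 21-25 somites and 17479 ± 5448 at 26-30 somites, and Hnrnpa2b1 10461 ± 798, 10566 ± 2108 and 9054 ± 1174 over the same stages (SD, n = 3 each). Both overlapped between the outer stages, and the sign of their difference turned with the probe set used, to 0.62 for Hnrnpdl and 0.73 for Hnrnpa2b1 without probe sets that carry a suffix. The log2 differences of the 18 genes ran from -0.38 to 0.76, and 3 genes were wholly apart upward and 0 downward, 16.7% against 21.4% of all tested genes in either direction.

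The PRPF proteins include scaffolds and regulators of the tri-snRNP and of U1. Prpf39, a U1 snRNP partner related to a yeast U1 protein, had 330.3, 162 and 219.6 at 16-20 somites, 829, 508 and 369 at 21-25 somites and 240.2, 307 and 230.0 at 26-30 somites. The middle stage was above both others on every array, and the outer stages overlapped. The first step was 1.15 ± 0.31 (limma adjusted p = 0.314), the second -1.0 ± 0.31 (adjusted p = 0.998), and the second minus the first -2.15 ± 0.54 (adjusted p = 0.762). A dimmer Prpf39 probe set, below the filter level, gave 0.99 ± 0.35 and -0.14 ± 0.35 for the 2 steps, so the return at 26-30 somites was not seen with it.

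Prpf6, a tri-snRNP protein that bridges U5 and U4/U6, had 1784, 2260.3 and 2679 at 16-20 somites, 1630.2, 1774 and 1661 at 21-25 somites and 1520.3, 1599 and 1539 at 26-30 somites. Each stage lay wholly below the one before it, and the whole difference was -0.50 ± 0.21 (limma adjusted p = 0.411). Its second probe set read 1397.6, 1685 and 1622 at 16-20 somites, 1207.3, 1207.2 and 1182 at 21-25 somites and 936, 850.4 and 1030.5 at 26-30 somites, again with no overlap, by -0.72 ± 0.17. Without the 3 arrays with a low top signal the brighter probe set gave -0.52. Prpf3, a U4/U6 protein, had -0.46 ± 0.33 over the whole interval with overlapping arrays, and 0.25 without those 3 arrays. Prpf19, a ubiquitin ligase of the activated spliceosome, averaged 6843 ± 1748 at 16-20 somites, 7608 ± 1143 at 21-25 somites and 7767 ± 1534 at 26-30 somites (SD, n = 3 each). Prpf40b, a dim gene for a U1-associated protein, had 0.76 ± 0.33 in the first step (limma adjusted p = 0.436) with no overlap.

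SUGP proteins carry a SURP and a G-patch domain, and Sugp1 works with SF3b at the branch site. Sugp2 had 238, 211 and 163 at 16-20 somites, 745, 1041 and 239.8 at 21-25 somites and 324, 259.8 and 227 at 26-30 somites. Replicates 1 and 2 of the middle stage were high, and replicate 3 was just above the first stage. Its first step was 1.40 ± 0.41 (limma adjusted p = 0.314) and its second minus first -2.44 ± 0.71 (adjusted p = 0.762). Without 21-25 somites replicate 3 the first step was 1.99, with a limma adjusted p of 0.0473. With all arrays kept and weighted by precision, limma's adjusted p for the first step was 0.428. The second Sugp2 probe set above the filter level did not show this, with 171, 148 and 234 at 16-20 somites, 197, 163 and 159 at 21-25 somites and 122, 162.5 and 184 at 26-30 somites, a first step of -0.064 ± 0.26. Sugp1 had -0.37 ± 0.32 over the whole interval, and 0.31 without the 3 arrays with a low top signal.

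At an unadjusted p under 0.05, 5 of the 55 genes differed between the 2 steps, 9.09% against 6.25% of all genes. Snrpb, Snrpb2 and Sf3b5 had a negative first and a positive second step, where 3.11% of all genes had a higher second than first step, and Prpf39 and Sugp2 the reverse, beside 3.14%. The second step of Sf3b5, 0.64 ± 0.57, ran from -0.64 to 1.52 over the alternative fits, so its sign was not stable. Both steps share the 3 arrays of 21-25 somites, so a high or low array of that stage enters them with opposite sign. The groups of arrays were wholly apart for 11 of the 55 genes between 26-30 and 16-20 somites, against 21.4% of all genes. Of these 5 were higher and 6 lower, beside 11.2% and 10.2% of all genes. Between 21-25 and 16-20 somites 14 genes were apart, against 14.3% of all genes, with 7 higher beside 6.97% and 7 lower beside 7.32%. Between 26-30 and 21-25 somites 5 were apart, against 9.31%, with 3 higher beside 4.48% and 2 lower beside 4.83%.

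Several probe sets existed for 37 of the 56 genes, up to 7 each, and 33 genes had more than 1 above the filter level. For 26-30 against 16-20 somites, probe sets of opposite sign were found in 12 of these 33, and for each of the steps in 22. Snrpd3 is an example. Its second probe set read 438, 445 and 414.5 at 16-20 somites, 563, 718 and 392 at 21-25 somites and 586, 637 and 567 at 26-30 somites, which is 0.44 ± 0.22 over the whole interval against -1.11 by the brighter probe set. The probe set that stood for a gene had an identifier suffix for sequence shared between transcripts or genes in 27 of 56 cases.

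**Figure D4:**
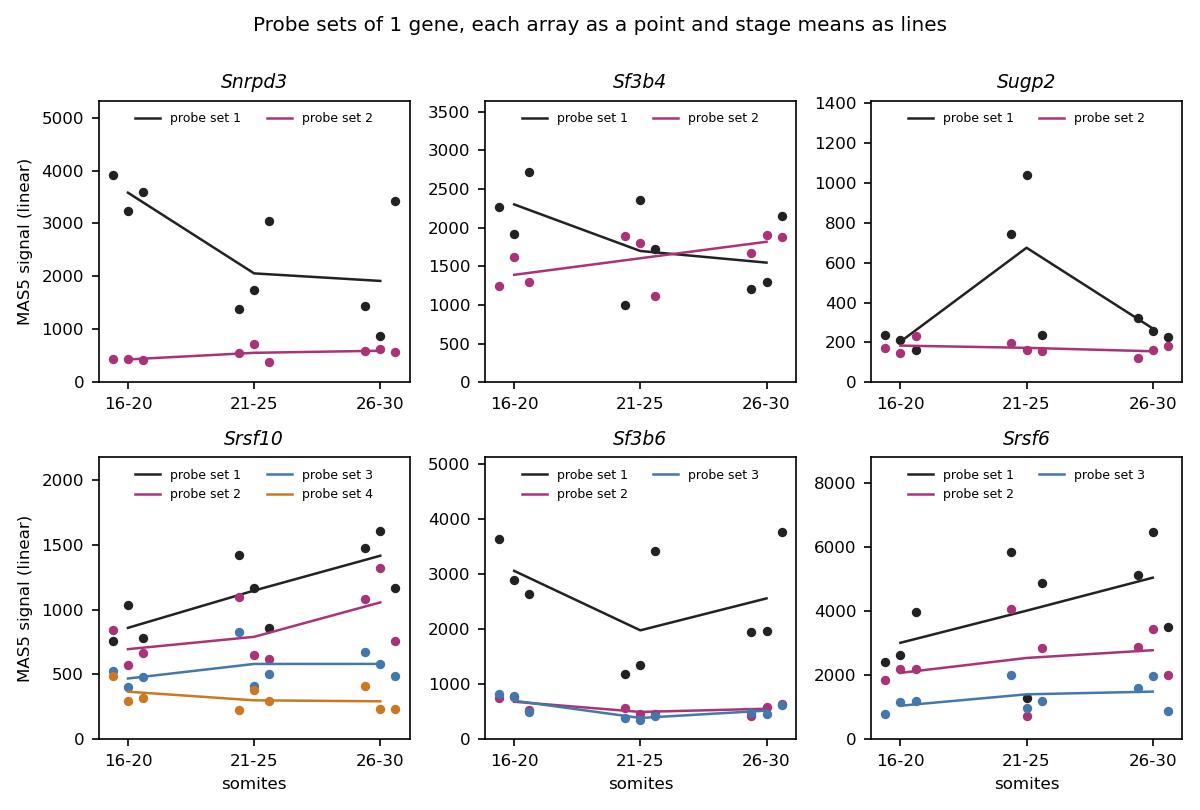
MAS5 signal (vertical axis, linear from 0) by stage in somites for the probe sets of 6 genes above the filter level, numbered by mean signal, with 1 point per array and lines through the stage means. The 2 probe sets of Snrpd3 and those of Sf3b4 go opposite ways, the 3 of Sf3b6 and of Srsf6 go the same way over the whole interval, and only 1 of the 2 Sugp2 probe sets is high at 21-25 somites.

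With arrays weighted by their precision, limma called 704 of the 8675 genes (8.12%) between 26-30 and 16-20 somites, 7 of them splicing factor genes. These were Hnrnpul1 at 0.90 (adjusted p = 0.0170), Srsf10 at 0.80 (0.0299), Srsf4 at 1.04 (0.0461), Snrpd3 at -1.31 (0.0315), Sf3b4 at -0.85 (0.0398), Prpf6 at -0.60 (0.0450) and Sf3b5 at -1.54 (0.0475). The heaviest weight, 3.37, went to 26-30 somites replicate 1, an array with a low top signal, and the lightest, 0.333, to 21-25 somites replicate 2. Replicates 1 and 3 of 21-25 somites had weights of 0.400 and 2.89. The share of 55 called, 12.7%, stood beside 8.12% of all genes.

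Of the other genes of the splicing machinery, 132 were on the array and 124 were tested. Between 26-30 and 16-20 somites, 12 were higher and 8 lower at an unadjusted p under 0.05, or 16.1% against 11.1% of all tested genes, and 0 passed limma's adjusted threshold. Tri-snRNP and activation factors had the same sign as the Snrp genes, with 10 of 14 lower, a median of -0.23 and 4 lower at an unadjusted p under 0.05, or 28.6% against 4.78% of all genes. Broadly expressed RNA-binding regulators had the sign of the SR proteins, with 19 of 23 higher, a median of 0.29 and 7 higher at an unadjusted p under 0.05, or 30.4% against 6.33%. Tissue-restricted splicing regulators also had the sign of the SR proteins, with 12 of 14 higher and a median of 0.30. The remaining groups were more even. Commitment and branch site factors had 7 of 16 higher (median -0.046) and the catalytic complex and helicases 11 of 21 (0.022). The SMN complex had 5 of 9 higher (0.057) and the minor spliceosome 3 of 6 (-0.13). SR-related proteins and SR protein kinases had 13 of 19 higher (0.13) and the exon junction complex 1 of 2 (-0.44). These lists were read with the results known, and no test was made of a list. Khdrbs1 (Sam68, an RNA-binding target of Src kinases) had 5515, 5349.6 and 4206 at 26-30 somites against 3201, 1739.5 and 2189.5 at 16-20 somites, with no overlap, by 1.11 ± 0.32 (limma adjusted p = 0.344). Cirbp, the cold-inducible RNA-binding protein gene, had 255, 210.5 and 152 at 26-30 somites against 65.0, 105 and 120.2 at 16-20 somites, by 0.92 ± 0.28 (adjusted p = 0.351). Fubp1, of the same list, had 1352, 1145 and 1231 at 26-30 somites against 899.5, 416 and 457 at 16-20 somites, again apart, by 1.12 ± 0.32 (limma adjusted p = 0.344).

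U2af1, whose product recognises the 3′ splice site ahead of U2, had its lowest values in the middle stage. It read 2089, 2040.2 and 2505 at 16-20 somites, 919.8, 302 and 1619.6 at 21-25 somites and 1623, 1526 and 1697 at 26-30 somites, with a first step of -1.48 ± 0.44 (limma adjusted p = 0.320) and a second of 1.04 ± 0.44 (adjusted p = 0.998). Bcas2, a subunit of the complex around Prpf19, had first and second steps of -0.74 ± 0.28 and 0.76 ± 0.28. Rbm8a, of the exon junction complex, had -1.20 ± 0.35 over the whole interval by its brightest probe set, with 2858, 2205 and 5955 at 26-30 somites against 7188, 8325 and 7666 at 16-20 somites, and 0.019 with its probe sets averaged. Zmat5, a dim gene for a protein of the minor spliceosome, had 121, 181 and 121 at 16-20 somites, 27.1, 104 and 30.9 at 21-25 somites and 86.5, 44.0 and 32.4 at 26-30 somites. Both later stages lay below the first, by -1.16 ± 0.39 at 21-25 somites (limma adjusted p = 0.358) and -1.09 ± 0.39 at 26-30 somites (adjusted p = 0.372). Srrm1, an SR-related splicing coactivator, had a first step of 1.01 ± 0.26 (limma adjusted p = 0.314). In its group of SR-related proteins and SR protein kinases 16 of 19 genes had their highest array in 21-25 somites replicate 1, 84.2% against 22.0% of all tested genes.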

How the data were processed

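The authors deposited 1 table of intensity values for 9 arrays, made with MAS5 per the submitters' processing notes and on a linear scale by their range. The MAS5 version and scaling target are not given in these sources. Affymetrix controls (64 of 22690 probe sets) were left out, as were 691 probe sets of several symbols and 1555 of none, and 14 probe sets that name a splicing factor gene beside others were not used. The probe set with the highest mean stood for each of 12393 genes. The deposited intensities were taken to log2 here after adding 26.2, their 20th percentile. The filter dropped genes below a mean signal of 80.1, the 30th percentile, and array medians lay within 0.37 log2, so no further normalization was applied. Stage means were fitted over all 9 arrays with limma 3.58.1 in R 4.3.3 (lmFit, eBayes with a trend), two-sided, with Benjamini-Hochberg adjustment over 8675 genes at 0.05. The step was tested on simulated data. Replicates are biological replicates per the labels, and precision is limited by how many arrays there are. Identical arrays were looked for (0 pairs).

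The members, the other splicing genes and the marker lists were chosen with earlier results of these data known. Named are, per comparison, the 5 members per direction with the smallest p, per family those with the highest and lowest mean signal and the 2 widest differences, members called in any alternative, Sf3b5 and Sugp2, and of other splicing genes the 2 per direction with the smallest p, Esrp1 and Esrp2. Gene identifiers of all 56 members matched RefSeq. Replicate numbers did not pair the arrays: same-numbered arrays of different stages correlated at -0.28 to 0.26 in their deviations from stage means. Alternatives were quantile normalization, median centring, 2 other pseudocounts, 2 other filters, no trend, array weights, a replicate block, the mean of all probe sets, probe sets without a suffix, only the compared stages, and fits without each array or without the 3 of low top signal.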

Additional observations from a re-analysis of the deposited data

How the results depend on the processing

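No splicing factor gene was called under the adjusted threshold except with array weights (7 for 26-30 against 16-20 somites) and without 21-25 somites replicate 3 (2 for the first step and 2 for the second minus the first). The count at an unadjusted p under 0.05 for 26-30 against 16-20 somites was 19 with array weights (27.8% of all genes), 12 with only the 6 compared arrays (17.0%) and 1 without the 3 arrays with a low top signal (3.19%). For the first step it was 5 with array weights (13.8% of all genes), and for the second 10 with array weights (17.99%), 1 with the mean of all probe sets (3.72%), 1 with probe sets without a suffix (3.93%), 2 with only the 6 compared arrays (3.63%) and 0 without the 3 arrays (1.68%). Leaving out 1 array gave 2 (without 26-30 somites replicate 2) to 11 (without 26-30 somites replicate 3) over the whole interval, 5 to 14 for the first step, highest without 21-25 somites replicate 2, and 1 to 8 for the second, highest without 21-25 somites replicate 3. The median over the genes was 0.21 with the mean of all probe sets over the whole interval, 0.11 with quantile normalization and -0.073 without the 3 arrays for the first step, and 0.14 with probe sets averaged, 0.17 without a suffix and 0.21 without the 3 arrays for the second. With 1 array left out it ran from -0.023 to 0.11 over the whole interval, from -0.073 to 0.089 for the first step and from -0.045 to 0.12 for the second. With a replicate block 8, 9 and 3 genes stood at an unadjusted p under 0.05 in the 3 comparisons, and it changed no call. Of the named genes, signs turned without the 3 arrays for Hnrnpa2b1 in the second step (0.088) and for Sugp1 (0.31), Prpf3 (0.25) and Snrpg (0.039) over the whole interval, with probe sets averaged for Rbm8a over the whole interval (0.019), for Sf3a3 over the whole interval with 1 array left out (-0.022 without 16-20 somites replicate 2, up to 0.34 without 16-20 somites replicate 1), and with probe sets without a suffix for Sf3b4 over the whole interval (0.39), Sf3b2 in the first step (-0.15) and Sugp2 in the first step (-0.064) and over the whole interval (-0.20), where another probe set stands for the gene. For the others the cause was not tested. The second step of Sf3b5 also turned sign, and was -0.64 at its lowest over the alternatives. With array weights Khdrbs1, Cirbp, Fubp1, Rbm8a and Rbm38 were also called over the whole interval. The description by protein length was not run. Between 26-30 and 16-20 somites, the SR protein median kept above 0 and the Snrp median below 0 in all 22 alternatives, at 0.27 to 0.65 and -0.95 to -0.14. For the first step the SR protein median ran from -0.12 without 21-25 somites replicate 1 to 0.36 without replicate 2.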

Other observations

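Splicing regulators known for tissue-restricted expression were on the array for 19 genes, of which 14 were tested. Between 26-30 and 16-20 somites 12 of the 14 had higher values, with a median of 0.30 on the log2 scale, against 0.011 over all tested genes, and 2 were higher and 1 lower at an unadjusted p under 0.05, or 21.4% against 11.1% of all tested genes. Rbm38, an RNA-binding protein gene that acts in erythroid splicing, had 82.0, 115 and 124 at 26-30 somites against 209, 230.0 and 213 at 16-20 somites, with no overlap. Its difference was -0.88 ± 0.24 (limma adjusted p = 0.331), and at 21-25 somites it averaged 222 ± 48.9, close to 16-20 somites. The epithelial regulator Esrp1 was level, at 687 ± 138 at 16-20 somites, 677 ± 217 at 21-25 somites and 686 ± 127 at 26-30 somites (SD, n = 3 each). Its relative Esrp2 was dim, at 75.2 ± 46.1, 79.1 ± 33.2 and 122 ± 40.6 over the same stages.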
